A study of Homo sapiens with 12 samples.

Results

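The genes described here are 54 interferon-stimulated genes, RNA sensors and immunoproteasome genes, listed by symbol and found by Ensembl identifier among the 57820 genes of the count files. All 54 were found, and 50 had enough reads to be tested. They were followed in Kyse410 and TE10, which are established human lines of squamous cell carcinoma of the esophagus, with 4 groups of 3 libraries of polyadenylated RNA. The groups were Kyse410 with a short hairpin RNA (shRNA) that targets UHRF1, Kyse410 with a scramble control, TE10 expressing the UHRF1 shRNA and TE10 with the scramble control. All 4 groups were stably infected, and the labels name no interferon or other added agent in any of them. The number of hairpin sequences, and whether infected cells were pooled or cloned, is not given in the sources used here, so effects of a hairpin cannot be told apart from those of UHRF1. Whether the 3 libraries of each group stem from separate cultures is not stated in the labels, so the p-values reflect only the spread among libraries, which could be technical.

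Type I and type III interferons are secreted when a cell detects foreign or misplaced nucleic acid. They bind receptors that carry the kinases JAK1 and TYK2, and a transcription factor complex that includes STAT2 and IRF9 then binds a sequence called the interferon-stimulated response element in the promoters of its target genes. Among these targets are the sensors themselves: RIG-I (gene DDX58 in this annotation) and MDA5 (IFIH1) recognise double-stranded RNA and signal through the adaptor MAVS to induce interferon. Epithelial cells such as those of the esophagus respond to type I interferons and, through a receptor largely limited to epithelia, to type III interferons. UHRF1, the target of the shRNA, recognises hemimethylated DNA behind the replication fork and recruits the maintenance methyltransferase DNMT1 there.

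The response element is written out here because it is the sequence through which that complex is known to act. Its core was searched as GAAANNGAA, read as TTCNNTTTC on the opposite strand, in the 250 bases before each gene's start in the RefSeq promoter table (GRCh38.p14, another build than that of the counts). It occurred in 28 of the 45 members with an entry (62.2%) and in 2295 of all 27305 promoters of the table (8.41%). The members were listed mainly as interferon-stimulated genes, so a share above that of all genes follows from how they were chosen. Of the 24 members lower in both lines in these data, 19 had an entry, and 15 of those held it. Of the 5 lower in TE10 and higher in Kyse410, 4 had an entry, and 3 of those held it. The other tested members held it in 8 of 19 cases. They are not a group without response, since some of them fell in a single line and some rose. The shares are a description only, and no test compared them. IRF7, DHX58, OAS2, OASL, IFIT2, MX2, IFITM2, USP18 and TRIM22 had no entry. The first 6 sequences below belong to members with some of the largest changes in either line, and the last 3, chosen after their values were seen, to members that moved in opposite directions. Each runs 5′ to 3′ in the direction of its gene, with only the match nearest to the start in capitals. IFIT1 and IFIT3 held 2 matches each in the window, HERC5 and ISG15 3 each and IFIH1 4. The unmarked ones can lie within the lower-case letters. A match describes the letters of the window and is not evidence of binding.
RSAD2 (chr2:6865776-6865844, plus strand): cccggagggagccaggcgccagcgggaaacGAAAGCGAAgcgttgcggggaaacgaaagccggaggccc
IFIT1 (chr10:89392491-89392559, plus strand): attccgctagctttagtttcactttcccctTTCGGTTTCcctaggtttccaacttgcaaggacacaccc
IFIT3 (chr10:89327846-89327914, plus strand): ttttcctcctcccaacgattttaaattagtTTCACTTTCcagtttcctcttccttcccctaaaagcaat
IFIH1 (chr2:162318685-162318735, minus strand): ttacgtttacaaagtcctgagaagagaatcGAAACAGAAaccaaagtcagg
HERC5 (chr4:88457016-88457084, plus strand): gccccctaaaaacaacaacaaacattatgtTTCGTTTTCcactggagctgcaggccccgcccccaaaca
ISG15 (chr1:1013366-1013434, plus strand): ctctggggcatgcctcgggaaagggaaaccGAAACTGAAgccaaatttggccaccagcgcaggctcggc
IFI16 (chr1:159009803-159009871, plus strand): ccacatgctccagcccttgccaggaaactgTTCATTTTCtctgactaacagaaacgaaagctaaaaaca
IFITM1 (chr11:313970-314038, plus strand): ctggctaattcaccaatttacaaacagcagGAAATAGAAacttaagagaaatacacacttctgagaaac
LGALS3BP (chr17:78979943-78980011, minus strand): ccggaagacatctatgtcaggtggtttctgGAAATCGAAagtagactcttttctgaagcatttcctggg

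Each library had between 7857662 and 12005229 gene-assigned reads, of 19346007 to 30727953 reads in all. UHRF1 itself was lower in the libraries labelled shRNA in both lines: it averaged 42.5 ± 0.892 CPM (reads relative to the TMM-scaled library total; mean ± SD, n = 3) with the shRNA in Kyse410, against 99.1 ± 3.47 with the scramble, and 85.9 ± 3.49 with the shRNA in TE10, against 179 ± 5.34 with the scramble. Of 10 squamous epithelial markers, all had reads in every group, although SOX2 was at or under 12 reads in each library and KRT5 at or under 17 in each Kyse410 library. Their summed level was 1263 to 1293 CPM in Kyse410 shRNA libraries, 1248 to 1287 in Kyse410 scramble libraries, 1416 to 1528 in TE10 shRNA libraries and 1938 to 1996 in TE10 scramble libraries. Of 9 tested, 3 fell and 5 rose in Kyse410, where 26.7% of all tested genes fell and 22.6% rose. In TE10, 7 fell and 2 rose, where 20.0% of all tested genes fell and 18.8% rose. The basal keratin genes KRT5 (−3.06 ± 0.117) and KRT14 (−2.28 ± 0.115), named after their values were seen, were among those that fell in TE10 (log2, SE). CDH1 (1.20) and EPCAM (0.73) were the 2 that rose there. In Kyse410, KRT14 fell as well (−1.79) and KRT5 did not (0.22). The part of these marker changes in the results was not tested. Of 10 blood cell markers, the summed level was 2.39 to 3.28 CPM in Kyse410 shRNA libraries, 3.09 to 5.20 in Kyse410 scramble libraries, 1.02 to 1.92 in TE10 shRNA libraries and 3.09 to 3.18 in TE10 scramble libraries, and MS4A1 was at 0 reads in all 12. Of 7 fibroblast and endothelial markers, LUM was at 0 reads in 3 of the groups and DCN likewise, and the summed level was 242 to 267 CPM in Kyse410 shRNA libraries, 139 to 149 in Kyse410 scramble libraries, 61.7 to 70.9 in TE10 shRNA libraries and 54.2 to 58.7 in TE10 scramble libraries. COL1A1 and CDH5 carried most of that sum in every group.

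Interferon-stimulated RNA, summed over the 54 genes, was lower with the UHRF1 shRNA in both lines. The 54 genes together took 0.346 to 0.354% of gene reads in Kyse410 shRNA libraries, against 0.504 to 0.514% in Kyse410 scramble libraries. In TE10 they took 0.259 to 0.270% with the shRNA, against 0.392 to 0.398% with the scramble, so the groups did not overlap in either line. Such a sum weighs abundant genes most. In Kyse410, mean levels with the scramble and the shRNA were 1302 and 916 CPM for IFITM3, 516 and 100 for IFIT2, and 423 and 174 for ISG15. Of the 50 tested members 8 rose there, among them LGALS3BP (189 and 334 CPM). In bulk RNA, fewer cells that express a gene and less of its RNA per cell cannot be told apart. IFITM3, which blocks the fusion of incoming viruses with membranes, gave the largest part of these reads, 27.4% of the summed level in Kyse410 with the shRNA and 26.3% with the scramble, and 16.1% in both TE10 groups.

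In Kyse410, 25 of the 50 tested members fell and 8 rose at an adjusted p under 0.05 in edgeR's quasi-likelihood test, where 26.7% of all 16060 tested genes fell and 22.6% rose. The median log2 fold change of the tested members was −0.49, against −0.03 over all tested genes. In TE10, 38 of 50 fell and 1 rose, where 20.0% of all tested genes fell and 18.8% rose, and the medians were −0.63 for the members and 0.00 for all genes. A fall of at least 2-fold was seen in 14 members in Kyse410 and in 15 in TE10, and a rise of that size in none of the tested members in either line. How many of all tested genes changed that much was not counted, so these 2-fold counts are a description only. The lone rise in TE10, of the virus-tethering membrane protein gene BST2, was small (0.14 ± 0.0458 on the log2 scale, SE) and did not pass without shRNA replicate 3 (edgeR adjusted p = 0.0593) or scramble replicate 1 (0.0518).

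The same members were often called in both lines. Of the 50, 24 fell in both, where 9.03% of all tested genes did so, and 5 fell in TE10 and rose in Kyse410, where 3.63% of all tested genes did so. A further 9 fell in TE10 and were not called in Kyse410: EIF2AK2, GBP1, IFI6, PARP9, DTX3L, STAT2, SAMD9L, MX2 and PLSCR1. CMPK2 fell in Kyse410 and was not called in TE10, UBE2L6 and PSMB8 rose in Kyse410 and were not called in TE10, and BST2 rose in both. The 8 members called in neither line were OAS3, IRF1, TRIM21, IFIT5, MX1, USP18, IRF9 and PSMB9. A call in one line and not in the other is not itself a difference between lines, which was tested separately. That test did not pass for EIF2AK2, GBP1, IFI6, SAMD9L and MX2 (edgeR adjusted p = 0.213, 0.96, 0.122, 0.326 and 0.243), and it passed for the other members called in one line only.

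**Figure D1:**
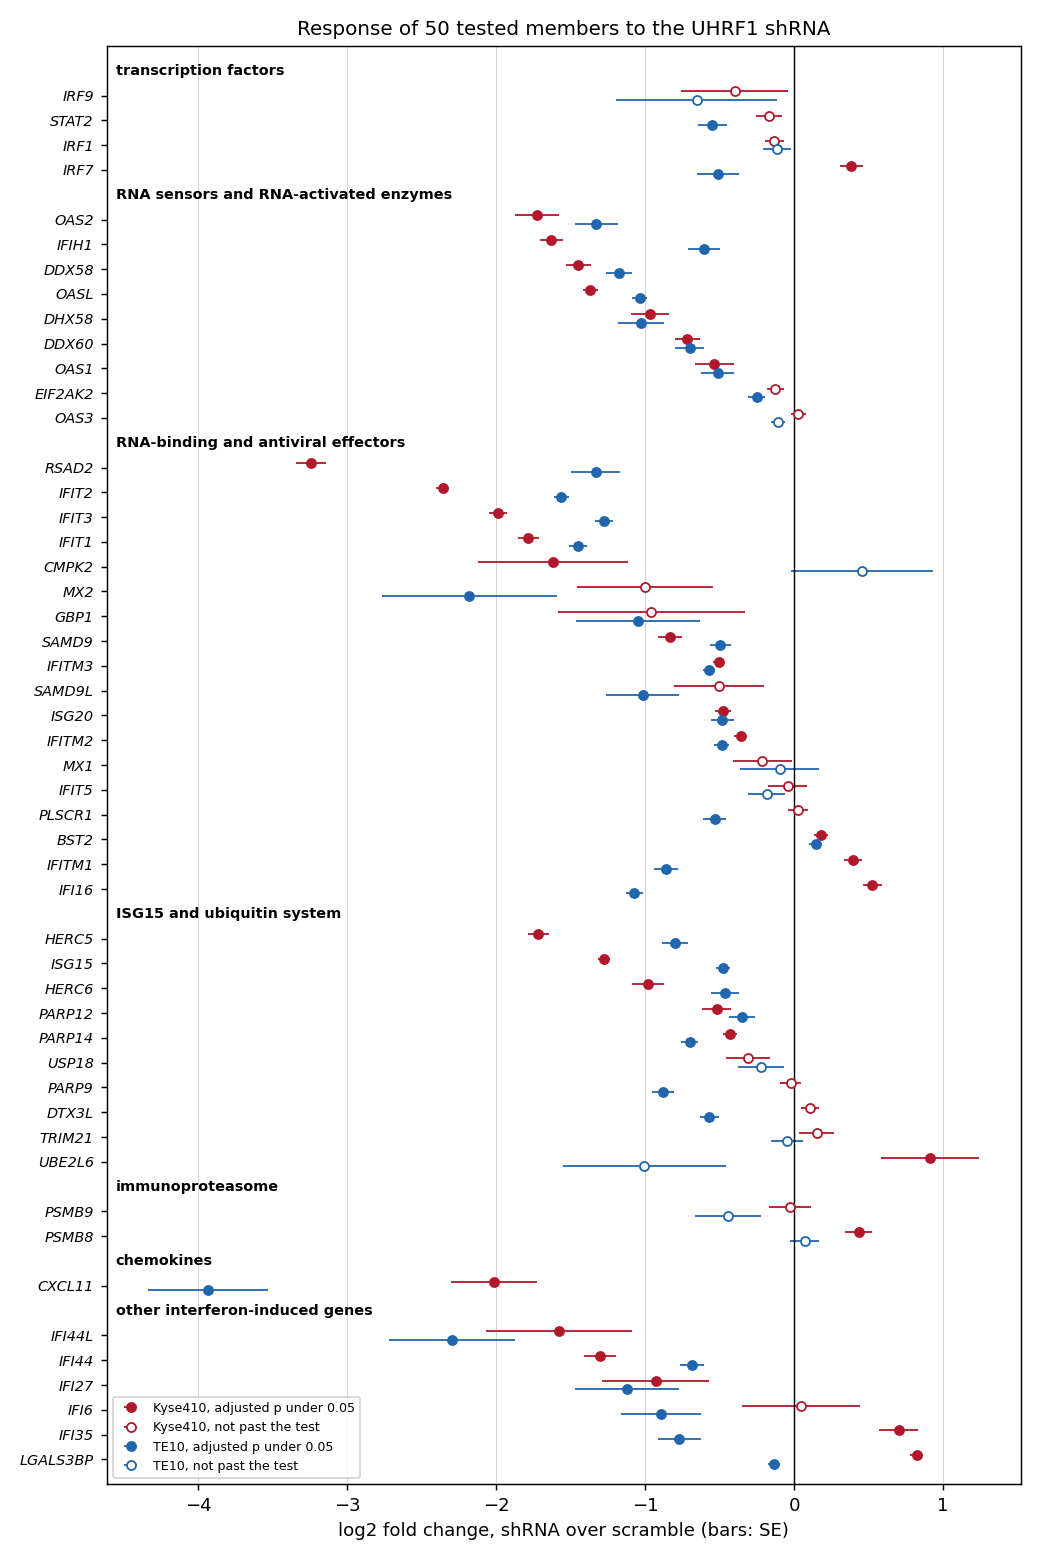
Log2 fold change (horizontal axis, shRNA over scramble) of the 50 tested members, grouped by role, in Kyse410 (red) and TE10 (blue). Bars are SE and filled points passed edgeR's test at an adjusted p under 0.05. Most points lie left of 0 in both lines, and those right of 0 with filled symbols are mainly red.

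Of 9 RNA sensors and RNA-activated enzymes, 7 fell in Kyse410 and 8 in TE10, and 0 rose in either line. Of all tested genes, 26.7% fell and 22.6% rose in Kyse410, and 20.0% fell and 18.8% rose in TE10. DDX58, the RIG-I gene, had 19.3, 20.6 and 21.6 CPM in the 3 Kyse410 shRNA libraries, against 49.98, 58.9 and 59.3 in the scramble libraries. In TE10 it had 25.95, 25.4 and 23.5 CPM with the shRNA, against 54.01, 60.03 and 55.3 with the scramble. Every shRNA library lay below every scramble library of its line, and the falls were −1.45 ± 0.0818 in Kyse410 and −1.18 ± 0.0860 in TE10 (log2, SE; edgeR adjusted p = 2.72e-21 and 1.21e-16). The difference between these falls did not pass (log2 difference −0.27 ± 0.121, edgeR adjusted p = 0.0687), though it passed without TE10 scramble replicate 2 (0.0456) or without Kyse410 scramble replicate 1 (0.0203).

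IFIH1, which encodes MDA5, a sensor of long double-stranded RNA, had 26.3, 31.8 and 26.6 CPM in Kyse410 shRNA libraries, against 89.6, 89.4 and 84.4 in scramble libraries. TE10 libraries had 15.4, 17.8 and 22.02 CPM of it with the shRNA, against 28.9, 26.2 and 28.8 with the scramble. The Kyse410 scramble libraries stood apart from the other 9 libraries, which reached at most 31.8 CPM. The fall in Kyse410 (−1.63 ± 0.0776) exceeded that in TE10 (−0.61 ± 0.106), with a log2 difference of −1.02 ± 0.134 (edgeR adjusted p = 1.02e-08). DHX58 encodes LGP2, which lacks the signalling domain of the other RNA helicase sensors and modulates them. It had 12.6, 11.9 and 9.98 CPM with the shRNA in Kyse410, against 19.3, 23.3 and 25.6 with the scramble, and 8.52, 5.62 and 9.02 CPM with the shRNA in TE10, against 16.3, 14.03 and 16.9 with the scramble. It fell in both lines, −0.97 ± 0.124 in Kyse410 and −1.03 ± 0.155 in TE10 (edgeR adjusted p = 3.56e-09 and 2.43e-07), and the difference was 0.06 ± 0.200.

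The oligoadenylate synthetases make a messenger that activates the ribonuclease RNase L. OAS2 had 4.65, 4.01 and 4.77 CPM in Kyse410 shRNA libraries, against 13.9, 16.2 and 14.4 in scramble libraries, and 7.89, 8.31 and 5.97 CPM in TE10 shRNA libraries, against 18.3, 19.6 and 17.9 in scramble libraries. Its falls were −1.73 ± 0.147 in Kyse410 and −1.33 ± 0.142 in TE10. OAS1 fell by a lesser amount in each line (−0.54 ± 0.132 in Kyse410 and −0.51 ± 0.111 in TE10), whereas OAS3 did not pass (0.03 ± 0.0522 in Kyse410 and −0.11 ± 0.0480 in TE10, edgeR adjusted p = 0.699 and 0.0637). The OAS3 change in TE10 passed without TE10 shRNA replicate 2 (0.0274) or Kyse410 shRNA replicate 1 (0.0350). OASL, an inactive relative that binds RIG-I, fell 2.58-fold in Kyse410 and 2.05-fold in TE10. EIF2AK2 encodes PKR, the kinase that halts translation on binding double-stranded RNA. It had 66.2, 66.6 and 67.9 CPM with the shRNA in Kyse410, against 70.6, 72.2 and 76.3 with the scramble, and 108, 119 and 106 CPM with the shRNA in TE10, against 137, 125 and 134 with the scramble. Its fall passed in TE10 (−0.25 ± 0.0545, edgeR adjusted p = 0.000155) and not in Kyse410 (−0.13 ± 0.0579, edgeR adjusted p = 0.0651), and the difference between the lines did not pass either (edgeR adjusted p = 0.213).

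**Figure D2:**
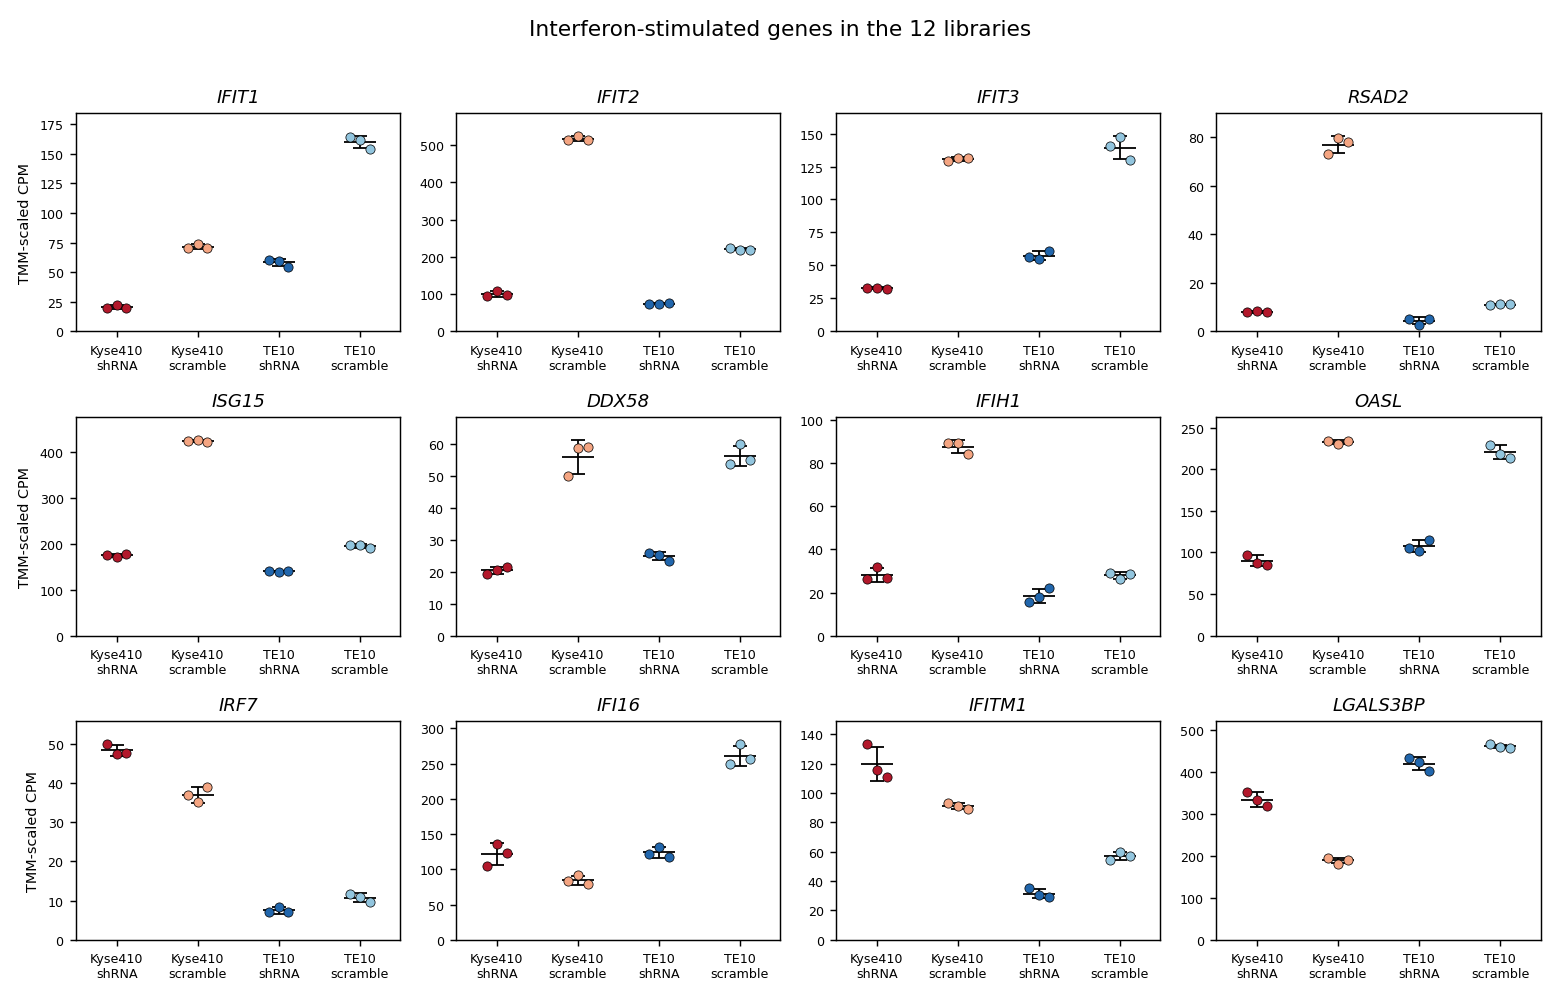
TMM-scaled CPM (vertical axes, from 0) of 12 members in each library of the 4 groups, with the mean and SD of 3 libraries. In the upper and middle rows the shRNA libraries lie below the scramble libraries in both lines, and in the lower row they lie above them in Kyse410 and below them in TE10.

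Among 18 RNA-binding proteins and antiviral effectors, 9 fell and 3 rose in Kyse410, where 26.7% of all tested genes fell and 22.6% rose. In TE10, 14 fell and 1 rose, where 20.0% of all tested genes fell and 18.8% rose. The largest fall in Kyse410 was that of RSAD2, which encodes viperin, an enzyme whose nucleotide product stops viral polymerases. It had 7.85, 8.52 and 7.81 CPM in Kyse410 shRNA libraries, against 72.97, 79.8 and 77.98 in scramble libraries, a 9.49-fold fall. TE10 libraries had 5.22, 2.81 and 5.17 CPM with the shRNA, against 10.7, 11.3 and 11.2 with the scramble, a 2.52-fold fall. The shRNA libraries of both lines thus reached at most 8.52 CPM, while the scramble levels were 76.9 ± 3.52 CPM in Kyse410 and 11.1 ± 0.310 in TE10 (SD, n = 3 each). On the log2 scale the falls were −3.25 ± 0.0997 and −1.33 ± 0.167, and their difference was −1.91 ± 0.217 (edgeR adjusted p = 2.61e-10). CMPK2 is a mitochondrial nucleotide kinase gene. In the annotation used for names, it overlaps RSAD2 on the opposite strand by 0.29% of RSAD2's exon bases. CMPK2 was near 1 CPM. It fell in Kyse410 (0.274, 0.655 and 0.217 CPM with the shRNA, against 1.22, 1.22 and 1.33 with the scramble) and was not called in TE10 (1.65, 1.15 and 1.06 CPM, against 0.517, 1.66 and 0.635). The difference of its responses, −2.08 ± 0.697, was the largest of any tested member and was not called without TE10 shRNA replicate 1 (edgeR adjusted p = 0.0523).

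The IFIT genes encode proteins that bind foreign RNA and block its translation. IFIT2 had 94.3, 108 and 98.5 CPM in Kyse410 shRNA libraries, against 512, 524 and 513 in scramble libraries. In TE10 it had 73.5, 73.2 and 77.2 CPM with the shRNA, against 225, 218 and 219 with the scramble. The groups were far apart in both lines, with falls of 5.14-fold and 2.96-fold. IFIT1, which recognises the ends of viral RNA, had 19.98, 22.4 and 19.5 CPM with the shRNA in Kyse410, against 70.8, 73.96 and 70.2 with the scramble, and 60.4, 59.8 and 54.5 CPM with the shRNA in TE10, against 164, 162 and 154 with the scramble. IFIT3, which stabilises IFIT1 on RNA, had 32.9, 33.3 and 32.3 CPM with the shRNA in Kyse410, against 129, 132 and 131 with the scramble, and 56.6, 54.8 and 61.03 CPM with the shRNA in TE10, against 140.5, 147 and 130.03 with the scramble. All 3 fell further in Kyse410 than in TE10, with log2 differences of −0.80 ± 0.0681 for IFIT2, −0.72 ± 0.0865 for IFIT3 and −0.33 ± 0.0948 for IFIT1 (edgeR adjusted p = 4.47e-14, 1.46e-09 and 0.00391). IFIT5, of the same family, was not called in either line (−0.04 ± 0.131 in Kyse410 and −0.18 ± 0.124 in TE10).

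The dynamin-like GTPase genes MX1 and MX2 were low throughout. MX2, which restricts the nuclear entry of some retroviruses, had 5, 1 and 1 reads in TE10 shRNA libraries, against 12, 16 and 8 in scramble libraries, and fell by 2.18 ± 0.588 (edgeR adjusted p = 0.00228). In Kyse410 its change did not pass (−1.005 ± 0.456, edgeR adjusted p = 0.0631) but was called lower in a fit of the 6 Kyse410 libraries alone (0.0476), while with the 6 TE10 libraries alone MX2 had too few reads to be tested. MX1 was not called in either line. GBP1, a guanylate-binding GTPase gene typical of the response to interferon gamma, was at 1.03 ± 0.322 CPM with the shRNA and 2.14 ± 0.344 with the scramble in TE10 (SD, n = 3 each). Its fall there (−1.05 ± 0.417, edgeR adjusted p = 0.041) was lost without any one of 5 TE10 libraries, at adjusted p of 0.0565 to 0.173. IFI6 fell in TE10 (4.20, 2.81 and 2.12 CPM with the shRNA, against 5.56, 5.23 and 6.25 with the scramble) and was not called in Kyse410 (0.730, 1.31 and 1.08 CPM, against 0.650, 1.53 and 0.947). The difference between the lines did not pass (0.94 ± 0.485, edgeR adjusted p = 0.122), and the TE10 call was lost without shRNA replicate 3 (edgeR adjusted p = 0.0567).

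Among 10 tested genes of the ISG15 and ubiquitin system, 5 fell and 1 rose in Kyse410, where 26.7% of all tested genes fell and 22.6% rose. In TE10, 7 fell and 0 rose, where 20.0% of all tested genes fell and 18.8% rose. ISG15, a ubiquitin-like protein that is attached to other proteins, had 174, 171 and 178 CPM in Kyse410 shRNA libraries, against 422, 425 and 422 in scramble libraries. The TE10 values were 141, 139 and 141 CPM with the shRNA, against 198, 198 and 191 with the scramble. With the shRNA the lines were thus closer to each other than with the scramble. The falls were 2.43-fold in Kyse410 and 1.39-fold in TE10, with a log2 difference of −0.80 ± 0.0589 (edgeR adjusted p = 2.52e-16). HERC5, the ligase that attaches ISG15, fell 3.29-fold in Kyse410 and 1.74-fold in TE10, and the difference again passed (edgeR adjusted p = 3.53e-09). USP18, the protease that removes ISG15, did not pass in either line (edgeR adjusted p = 0.0796 in Kyse410 and 0.267 in TE10), but passed as lower in Kyse410 without shRNA replicate 1 there (0.0154). UBE2L6, the conjugating enzyme of ISG15, was low, with 32, 29 and 31 reads in Kyse410 shRNA libraries, against 10, 20 and 19 in scramble libraries, and 4, 2 and 6 reads in TE10 shRNA libraries, against 5, 10 and 12 in scramble libraries. Its rise in Kyse410 (0.91 ± 0.329) was lost without shRNA replicate 3 (edgeR adjusted p = 0.0797) or scramble replicate 1 (0.195). PARP9 and DTX3L, which act as one complex in DNA damage and interferon signalling, are divergent neighbours and fell in TE10 (−0.88 ± 0.0726 and −0.57 ± 0.0633) but were not called in Kyse410 (−0.03 ± 0.0719 and 0.10 ± 0.0579). The differences between the lines passed for both, with edgeR adjusted p of 1.12e-09 and 5.45e-09. DTX3L passed as higher in Kyse410 without TE10 shRNA replicate 1 (0.0359), with upper-quartile scaling (0.0249), with mitochondrial transcripts removed (0.0485) and in a fit of the 6 Kyse410 libraries alone (0.0417).

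CXCL11, a chemokine that attracts T cells through CXCR3, fell the most of any member in TE10. It had 2, 3 and 3 reads in TE10 shRNA libraries, against 43, 56 and 40 in scramble libraries, and 7, 14 and 17 reads in Kyse410 shRNA libraries, against 60, 49 and 48 in scramble libraries. The groups did not overlap in either line. The falls were −3.93 ± 0.404 in TE10 and −2.02 ± 0.287 in Kyse410, and their difference was 1.92 ± 0.578 (edgeR adjusted p = 0.00638). CXCL10, a ligand of the same receptor, had too few reads to be tested, with 7, 3 and 7 in Kyse410 shRNA libraries, against 12, 4 and 3 in scramble libraries, and 0 in each TE10 shRNA library, against 2, 1 and 1 in scramble libraries. A count of 0 over the 3 TE10 shRNA libraries allows a level of up to 0.129 CPM (3 reads over the group, counting error only). The other untested members were TRIM22, XAF1 and EPSTI1. TRIM22 had 9 reads in Kyse410 shRNA libraries, against 2 in scramble libraries, and 3 in TE10 shRNA libraries, against 9 in scramble libraries. XAF1 had 2 reads in each Kyse410 group, and 0 in TE10 shRNA libraries, against 2 in scramble libraries. EPSTI1 had 2 reads in Kyse410 shRNA libraries, against 0 in scramble libraries, and 0 in TE10 shRNA libraries, against 6 in scramble libraries.

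IFI44L and IFI44, neighbouring interferon-induced genes, fell in both lines. IFI44L had 2, 8 and 5 reads in TE10 shRNA libraries, against 19, 29 and 35 in scramble libraries, and 3, 6 and 4 reads in Kyse410 shRNA libraries, against 14, 8 and 18 in scramble libraries. Its falls were −2.297 ± 0.422 in TE10 and −1.58 ± 0.491 in Kyse410, the call in Kyse410 being lost without Kyse410 scramble replicate 3 (edgeR adjusted p = 0.0605). IFI27 also fell in both lines, with at most 3.36 CPM in any library, and its calls were lost without TE10 shRNA replicate 2 (edgeR adjusted p = 0.0760) and, in Kyse410, without shRNA replicate 2 or 3 or scramble replicate 1 (0.0795 to 0.122).

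The 5 members that fell in TE10 and rose in Kyse410 were IFI16, IFITM1, IRF7, IFI35 and LGALS3BP. IFI16, a nuclear sensor of DNA, had 105, 136 and 122 CPM in Kyse410 shRNA libraries, against 83.1, 91.4 and 79.3 in scramble libraries. The TE10 libraries had 122, 132 and 118 CPM with the shRNA, against 250.04, 277 and 256 with the scramble. The shRNA libraries of both lines thus had similar levels, above those of Kyse410 scramble libraries and below those of TE10 scramble libraries. Its changes were 0.52 ± 0.0621 in Kyse410 and −1.07 ± 0.0591 in TE10, a difference of 1.597 ± 0.0858 (edgeR adjusted p = 1.29e-21). IRF7, the transcription factor that amplifies interferon production, had 49.9, 47.4 and 47.8 CPM with the shRNA in Kyse410, against 36.9, 35.1 and 39.1 with the scramble. In TE10 it had 6.998, 8.43 and 7.03 CPM with the shRNA, against 11.8, 10.9 and 9.53 with the scramble. The groups did not overlap in either line, with changes of 0.38 ± 0.0782 and −0.51 ± 0.143 and a difference of 0.89 ± 0.163 (edgeR adjusted p = 1.16e-05).

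IFITM1, a membrane protein that blocks virus entry, had 133, 115 and 111 CPM in Kyse410 shRNA libraries, against 92.96, 91.3 and 88.97 in scramble libraries, and 34.99, 30.3 and 29.3 CPM in TE10 shRNA libraries, against 54.7, 60.03 and 57.1 in scramble libraries. Its neighbours IFITM2 and IFITM3 fell in both lines, with IFITM2 at −0.36 ± 0.0436 in Kyse410 and −0.49 ± 0.0524 in TE10, and IFITM3 at −0.51 ± 0.0359 in Kyse410 and −0.57 ± 0.0382 in TE10. These genes are similar in sequence, and 32.5% of IFITM1's exon bases overlap IFITM2 in the annotation used for names. Reads of them could thus be lost as ambiguous or not unique, so the level of each is uncertain. IFI35, an interferon-induced leucine zipper protein gene, had 14.9, 13.7 and 14.3 CPM in Kyse410 shRNA libraries, against 9.02, 8.87 and 8.43 in scramble libraries, and 8.78, 7.67 and 8.23 CPM in TE10 shRNA libraries, against 15.2, 11.3 and 15.6 in scramble libraries. LGALS3BP, which encodes a secreted galectin-binding glycoprotein, had 352, 332 and 317 CPM in Kyse410 shRNA libraries, against 194, 182 and 191 in scramble libraries, and 433, 424 and 402 CPM in TE10 shRNA libraries, against 465, 459.5 and 457 in scramble libraries. The LGALS3BP fall in TE10 was small (−0.13 ± 0.0399) and was lost without shRNA replicate 3 (edgeR adjusted p = 0.0625). The differences between the lines were 1.26 ± 0.0997 for IFITM1, 1.47 ± 0.196 for IFI35 and 0.95 ± 0.0575 for LGALS3BP, and all 3 passed (edgeR adjusted p = 3.64e-15, 1.68e-08 and 1.29e-19).

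Of the other transcription factors, STAT2 fell in TE10 and was not called in Kyse410. It had 27.9, 33.3 and 26.6 CPM in Kyse410 shRNA libraries, against 32.8, 32.5 and 33.8 in scramble libraries, and 20.1, 22.7 and 23.7 CPM in TE10 shRNA libraries, against 34.4, 32.3 and 30.9 in scramble libraries. Its changes were −0.17 ± 0.0862 in Kyse410 (edgeR adjusted p = 0.102, or 0.0249 without shRNA replicate 2) and −0.55 ± 0.0983 in TE10 (8.19e-06), and the call of their difference (adjusted p = 0.0173) was lost without TE10 shRNA replicate 1, TE10 scramble replicate 1 or Kyse410 shRNA replicate 2 (0.0783, 0.0514 and 0.0807). IRF1, a factor induced mainly by interferon gamma, had 73.9, 74.5 and 69.6 CPM in Kyse410 shRNA libraries, against 82.1, 80.8 and 76.7 in scramble libraries, and 30.8, 30.9 and 24.8 CPM in TE10 shRNA libraries, against 29.7, 35.9 and 28.5 in scramble libraries. It did not pass in either line (edgeR adjusted p = 0.0851 in Kyse410 and 0.334 in TE10). IRF9, the DNA-binding partner of STAT2, had 21, 24 and 8 reads in Kyse410 shRNA libraries, against 27, 26 and 17 in scramble libraries, and 5, 4 and 7 reads in TE10 shRNA libraries, against 3, 18 and 7 in scramble libraries. It was not called in either line. In the annotation used for names, 48.4% of its exon bases are shared with a read-through gene on the same strand. Reads of IRF9 could thus be lost as ambiguous.

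The immunoproteasome genes PSMB8 and PSMB9 encode catalytic subunits that replace the standard ones when peptides are made for presentation on MHC class I. PSMB8 had 36.1, 31.3 and 35.6 CPM in Kyse410 shRNA libraries, against 27.6, 25.8 and 22.5 in scramble libraries, and 30.8, 32.7 and 31.97 CPM in TE10 shRNA libraries, against 30.4, 33.9 and 27.00 in scramble libraries. It rose in Kyse410 (0.43 ± 0.0896, edgeR adjusted p = 5.76e-05) and was not called in TE10 (0.608). PSMB9 had 14.9, 12.3 and 11.3 CPM in Kyse410 shRNA libraries, against 12.4, 14.4 and 12.7 in scramble libraries, and 5.34, 2.30 and 3.98 CPM in TE10 shRNA libraries, against 6.07, 4.99 and 4.87 in scramble libraries, and was not called in either line. Its TE10 change (−0.45 ± 0.224, edgeR adjusted p = 0.112) passed without shRNA replicate 1 (0.0225). In the annotation used for names, 20.6% of PSMB8's exon bases lie opposite an RNA of the other strand. The shares were 22% for IRF1 and 21.3% for IFITM3. Since the strand setting of the counting is not given, reads of such partners cannot be told apart.

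The response to the shRNA itself was compared between the lines, as the Kyse410 log2 fold change minus that of TE10. Of 50 tested members, 13 gave a positive difference (26%) and 12 a negative one (24%), where 19.0% of all tested genes were called positive and 19.9% negative. These shares are not far apart, and no test compared them. The 12 negative differences, that is a fall that was larger in Kyse410 or was seen there alone, were those of IFIH1, OASL, IFIT1, IFIT2, IFIT3, RSAD2, CMPK2, SAMD9, ISG15, HERC5, HERC6 and IFI44. The 13 positive ones comprised the 5 members that moved in opposite directions, CXCL11 and PARP14, which fell further in TE10, and STAT2, PLSCR1, UBE2L6, DTX3L, PARP9 and PSMB8. Without TE10 shRNA replicate 2 or Kyse410 shRNA replicate 1, SAMD9 was not called (edgeR adjusted p = 0.0540 and 0.0558), and without TE10 shRNA replicate 2 or TE10 scramble replicate 3, UBE2L6 was not (0.0538 and 0.0537). The difference of PSMB8 was lost without any one of 5 libraries (0.0507 to 0.116). Beside these results stand the mitochondrially encoded transcripts of 13 genes, which took 2.79 to 2.86% of gene reads in Kyse410 shRNA libraries, against 1.60 to 1.72% in Kyse410 scramble libraries, and 4.52 to 5.18% in TE10 shRNA libraries, against 5.32 to 5.42% in TE10 scramble libraries. With these transcripts removed before scaling, 25 members fell and 9 rose in Kyse410, and 38 fell and 1 rose in TE10.

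The scramble controls show the level from which each line started. In Kyse410 scramble libraries 17 of 50 tested members were higher than in TE10 scramble libraries and 22 were lower, where 36.7% of all tested genes were higher and 37.1% lower. The median log2 difference of the members was −0.17, and 10 of them were at least 2-fold higher and 11 at least 2-fold lower. The share of all tested genes past 2-fold was not counted. RSAD2 differed the most, with a level 6.92-fold higher in Kyse410, and IFIH1 was 3.14-fold higher (log2 1.65 ± 0.0809). IRF7 was 3.47-fold higher, IRF1 2.55-fold and PSMB9 2.48-fold, while STAT2 (0.03 ± 0.0880) and DDX58 (−0.01 ± 0.0730) did not pass (edgeR adjusted p = 0.8 and 0.866). Lower in Kyse410 were IFI6 (5.55-fold), GBP1 (3.82-fold), IFI16 (3.09-fold), IFIT1 (2.23-fold) and EIF2AK2 (1.81-fold). IRF9 was higher in Kyse410 (0.96 ± 0.408, edgeR adjusted p = 0.0312), a call lost without any one of 4 scramble libraries (0.0668 to 0.208). PSMB8 was lower there (−0.26 ± 0.0942), a call lost without TE10 scramble replicate 2 or Kyse410 scramble replicate 3 (0.134 and 0.108) and with no scaling factor (0.114). The baseline and shRNA comparisons share the scramble libraries, so their values are given side by side only.

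**Figure D3:**
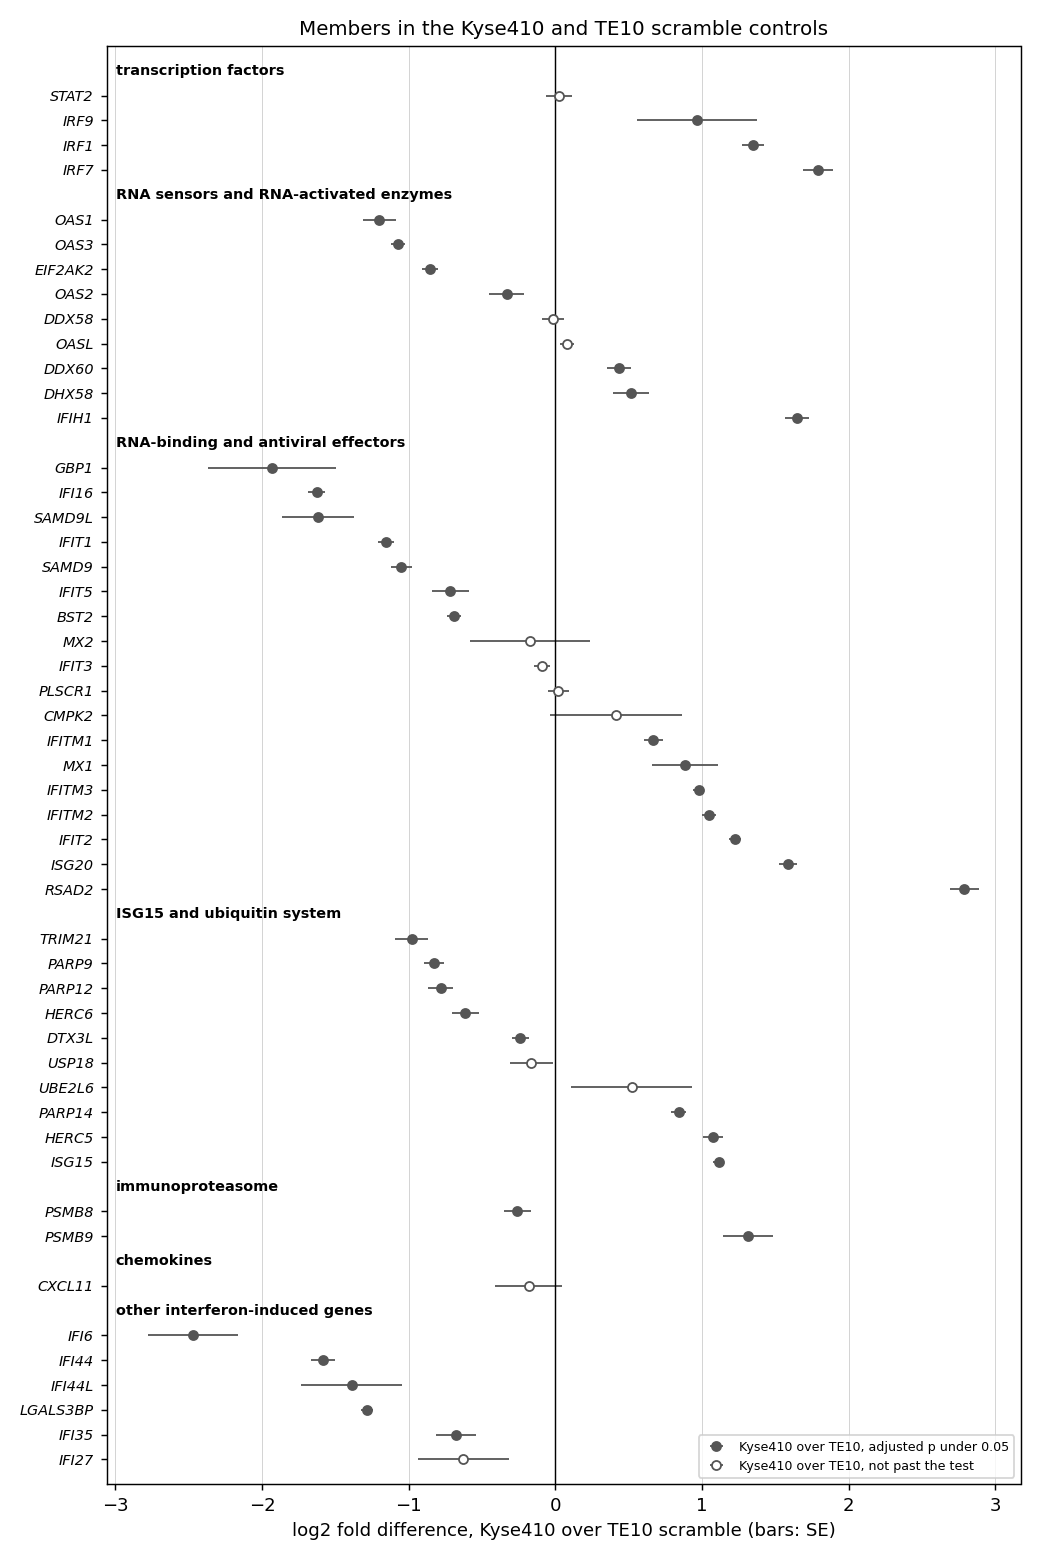
Log2 difference (horizontal axis, Kyse410 scramble over TE10 scramble) of the 50 tested members, grouped by role. Bars are SE and filled points passed edgeR's test at an adjusted p under 0.05. Points spread on both sides of 0, from IFI6 at −2.47 to RSAD2 at 2.79.

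The rest of the pathway was counted from lists of ligands, receptors, kinases, adaptors and inhibitors. Of 21 interferon genes, 15 had 0 reads in the 12 libraries, and IFNB1, which encodes interferon beta, had 2 reads in all. The type III interferon gene IFNL1 had 24, 31 and 22 reads in Kyse410 shRNA libraries, against 98, 78 and 88 in scramble libraries. It fell there by 1.76 ± 0.229 on the log2 scale (edgeR adjusted p = 5.12e-09), and the groups did not overlap. In TE10 it was called lower (adjusted p = 0.0239) on 2 reads with the shRNA, against 13 with the scramble, a ratio of scramble to shRNA of 5.90 (95% counting interval 1.33 to 53.8). That call was lost without TE10 shRNA replicate 1 or TE10 scramble replicate 2 (edgeR adjusted p = 0.114 and 0.236). IFNL2 and IFNL3, named after their values were seen, are near-identical to each other and so uncertain. They had 3 and 5 reads in Kyse410 shRNA libraries, against 29 each in scramble libraries.

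Of 6 receptor genes, 1 rose and 1 fell in Kyse410, and 2 rose in TE10. Of all tested genes, 22.6% rose and 26.7% fell in Kyse410, and 18.8% rose and 20.0% fell in TE10. Such small counts are not read as a result about the list. IFNAR1, a chain of the type I receptor, was not called in Kyse410 (−0.08 ± 0.0656) and rose in TE10 (0.27 ± 0.0725). IFNAR2, its partner chain, was not called in either line (0.27 ± 0.128 in Kyse410 and −0.18 ± 0.153 in TE10), but passed as higher in Kyse410 without TE10 shRNA replicate 1 (edgeR adjusted p = 0.0489) and with upper-quartile scaling (0.0382). Of the receptor-bound kinases, JAK2, which serves the interferon gamma receptor and was named after its values were seen, was called lower in both lines (−0.37 ± 0.140 in Kyse410 and −0.78 ± 0.173 in TE10, edgeR adjusted p = 0.0242 and 0.000249). Its Kyse410 call was lost without shRNA replicate 1 (0.151) or scramble replicate 2 (0.256) of that line and with upper-quartile scaling (0.0506). JAK1 fell in TE10 (−0.19 ± 0.0546), a call lost without shRNA replicate 1 or scramble replicate 2 (0.193 and 0.0777), and was not called in Kyse410 (0.04 ± 0.0474). TYK2 rose in Kyse410 (0.28 ± 0.0559) and was not called in TE10 (−0.06 ± 0.0589).

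Of 12 tested adaptors and other sensors, 5 rose and 3 fell in Kyse410, where 22.6% of all tested genes rose and 26.7% fell. In TE10, 3 rose and 3 fell, where 18.8% of all tested genes rose and 20.0% fell. Most of these counts lie near the shares of all genes and are not read as a result about the list. MAVS, through which RIG-I and MDA5 signal, was not called in either line (0.02 ± 0.0667 in Kyse410 and −0.16 ± 0.0684 in TE10), but passed as lower in TE10 without shRNA replicate 1 or scramble replicate 2 there (edgeR adjusted p = 0.0448 and 0.0167) and with a replicate block (0.0486). ADAR, which edits double-stranded RNA, fell slightly in Kyse410 (−0.17 ± 0.0406) and was not called in TE10 (−0.06 ± 0.0394). TLR3, an endosomal receptor of double-stranded RNA, had 1.65, 2.94 and 3.18 CPM in TE10 shRNA libraries, against 9.05, 8.32 and 9.95 in scramble libraries. It fell there by 1.81 ± 0.238 (edgeR adjusted p = 1.08e-08) and was not called in Kyse410 (−0.46 ± 0.245). AIM2, a cytosolic DNA sensor, had 34 reads in Kyse410 shRNA libraries, against 5 in scramble libraries, and rose by 2.67 ± 0.625 (edgeR adjusted p = 0.000313). TMEM173, which encodes STING, the adaptor of cytosolic DNA sensing, was named after its values were seen. It had 59.3, 51.9 and 55.4 CPM in Kyse410 shRNA libraries, against 32.8, 33.7 and 36.1 in scramble libraries, and 28.2, 30.03 and 32.8 CPM in TE10 shRNA libraries, against 63.8, 57.4 and 59.6 in scramble libraries, so it rose in Kyse410 and fell in TE10. Of 6 inhibitors, 2 rose and 1 fell in Kyse410, and 3 fell in TE10, with the same shares of all tested genes beside them. SOCS1, a feedback inhibitor of JAK kinases, was not called in either line (−0.37 ± 0.363 in Kyse410 and 0.04 ± 0.287 in TE10). SOCS3, a related inhibitor named after its values were seen, fell in TE10, with 17.2, 17.5 and 17.1 CPM in shRNA libraries, against 44.6, 42.8 and 47.1 in scramble libraries. In Kyse410 it was called higher by a small amount (0.13 ± 0.0508, edgeR adjusted p = 0.0346), with 136, 134 and 132 CPM in shRNA libraries, against 118, 119.6 and 131 in scramble libraries. This call was lost without any one of 4 Kyse410 libraries (0.0524 to 0.184).

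**Figure D4:**
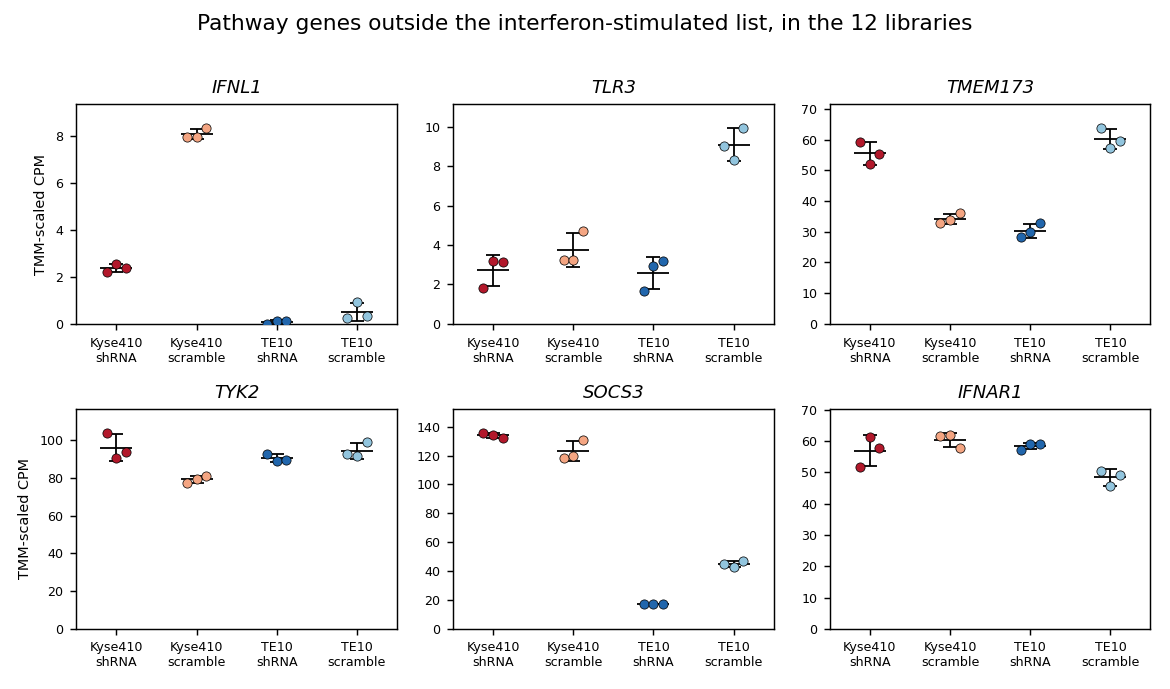
TMM-scaled CPM (vertical axes, from 0) of 6 pathway genes outside the list of 54 in each library of the 4 groups, with the mean and SD of 3 libraries. IFNL1 lies lower in shRNA than in scramble libraries of each line, TLR3 and SOCS3 do so in TE10, and TMEM173 lies higher with the shRNA in Kyse410 and lower in TE10.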

How the data were processed

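RNA sequencing counts of 12 libraries were used, 3 in each of 4 groups assigned by the labels. The authors deposited raw counts, whole numbers of reads per gene, 1 file per library. The submitters' processing notes name HISAT2 2.1.0 and bcl2fastq 2.19, HTSeq 0.9.1, DESeq2 and build GRCh37.p13; neither annotation nor strand setting is given in the sources used here. Reads that HTSeq gave to no feature, 42.9 to 44.7% of each library, stayed out of totals and tests. Symbols came from GENCODE release names, matched for 52339 of 57820 identifiers, and UHRF1 was named by its identifier, ENSG00000034063. Exon overlaps came from the same release, which may differ from the annotation of the counts.

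The 54 members and the pathway and marker lists were chosen with earlier results of these data known. Genes were kept by filterByExpr (16060), scaled by TMM and fitted with edgeR 4.0.16 (R 4.3.3; limma 3.58.1) in one quasi-likelihood fit of 12 libraries with group means and 8 residual degrees of freedom. Benjamini-Hochberg adjustment ran over all 16060 genes, and calls were made under 0.05. Levels are TMM-scaled CPM with the SD of 3 libraries; SE belongs to log2 fold changes. Members named with values per library are, for each of 4 comparisons, the 6 called members with the largest change, those called in opposite directions, a fixed set of sensors, factors and chemokines, and untested members. Pathway genes named are a fixed set and the 2 with the largest called change per knockdown comparison. JAK2, TMEM173, SOCS3, IFNL2 and IFNL3 were added after their values were seen. Alternatives were other scalings, filters, DESeq2 1.42.0, a replicate block, each line alone, removal of mitochondrial transcripts, and each library left out. The procedure was run on simulated counts with a single spread for all genes and known changes in the knockdown comparisons only. That run does not bear on the other comparisons. Replicates of a group differed by a chi-square of 1.57 to 2.92 per degree of freedom, so counting intervals cover counting error only. Tables and plots were made with matplotlib 3.10.9, SciPy 1.17.1, numpy 2.4.6 and pandas 2.3.3 in Python 3.11.15. Promoter sequences are from RefSeq (GRCh38.p14). IKBKE and PECAM1 were not analysed here. One pathway gene of the fixed set, and the counts of its group, are not reported here.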

Additional observations from a re-analysis of the deposited data

Results flagged for a closer look

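For 25 of 50 tested members the response to the shRNA differed between the lines by the test of the difference itself (edgeR adjusted p under 0.05, Kyse410 log2 fold change minus that of TE10). Of the tested members, 26% were called positive and 24% negative, against 19.0% and 19.9% of all tested genes. These shares are not far apart, and no test compared them. The differences were −1.02 for IFIH1, −0.33 for OASL, −0.33 for IFIT1, −0.80 for IFIT2, −0.72 for IFIT3, −1.91 for RSAD2, −2.08 for CMPK2, −0.34 for SAMD9, −0.80 for ISG15, −0.92 for HERC5, −0.52 for HERC6 and −0.62 for IFI44. They were 0.89 for IRF7, 1.597 for IFI16, 1.26 for IFITM1, 1.47 for IFI35 and 0.95 for LGALS3BP, the members called in opposite directions. They were 0.38 for STAT2, 0.56 for PLSCR1, 1.92 for UBE2L6, 0.67 for DTX3L, 0.86 for PARP9, 0.27 for PARP14, 0.36 for PSMB8 and 1.92 for CXCL11. Among the pathway genes named, the differences that passed were −0.36 for IFNAR1, 0.23 for JAK1, 0.34 for TYK2, 1.69 for TMEM173, 1.504 for SOCS3, 1.35 for TLR3 and 3.13 for AIM2. That of JAK1 was lost without TE10 shRNA replicate 1 (edgeR adjusted p = 0.0741) or TE10 scramble replicate 2 (0.0706). Groups of 3 libraries are too small for a check of single libraries that stand apart. The share of mitochondrial reads also moved differently between the lines, as given above, and its part in these differences was not tested.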

How the results depend on the processing

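Over 21 alternative settings, 5404 values of single genes were recomputed, and 0 changed direction among called values; 5298 kept their side of the threshold, 61 lost it and 45 gained it. The count of members higher in TE10 was 1 and became 0 without shRNA replicate 3 or without scramble replicate 1, both through BST2. Leaving out each library in turn gave 35 to 39 members lower and 0 to 1 higher in TE10, 24 to 26 lower and 7 to 9 higher in Kyse410, 12 to 14 positive and 11 to 13 negative differences between the lines, and 16 to 17 members higher and 20 to 24 lower in Kyse410 scramble libraries. With the replicate number as a block, the counts of members were those given above in each comparison (38 lower and 1 higher in TE10, 25 and 8 in Kyse410, 12 and 13 for the difference, 22 and 17 at baseline). Same-numbered libraries of different groups had deviations correlated at −0.0343 to 0.0606, and other-numbered ones at −0.0895 to 0.0566. These are deviations from means of 3 libraries and hold counting error. A weak pairing by number could thus go unseen and is not excluded. DESeq2 called 37 members lower and 1 higher in TE10 and 24 lower and 7 higher in Kyse410. Calls of members under about 4 CPM rest on few reads, among them GBP1, CMPK2, UBE2L6, MX2, IFI27, IFI44L and IRF9, and the limits of depth apply to them first.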
